A study of Saccharomyces cerevisiae with 5 samples.

Results

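The genes described here encode RNA polymerase II, the Mediator complex, general initiation factors, TBP-associated factors (TAFs) and the SPT elongation factors of Saccharomyces cerevisiae. They were chosen by name, from a list of 57 gene symbols, and all 57 were found among the 5583 genes named on the arrays. They had 68 of 6695 named spots on the platform of arrays 1 and 2, and 116 of 11138 on that of arrays 3, 4 and 5. Each of the 5 arrays compared 2 channels of cDNA, one from RNA recovered with the tagged protein zzYra1 by immunoprecipitation (IP) and one from total RNA. Arrays 1 and 3 carried the IP RNA in channel 1, while channel 2 held it on arrays 2, 4 and 5. Strain background, growth and extraction are not given in the sources used here, nor is the meaning of zz, and no IP from cells without the tag was analysed here.

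Yra1 binds RNA and acts as an adaptor in the export of mRNA from the nucleus. It joins transcripts while they are being made and passes them to the export receptor. RNA polymerase II makes those transcripts. General factors place it at the promoter, Mediator carries signals from activators to it, and SPT factors travel with it through chromatin. The values below concern the mRNAs that encode this machinery, not binding of Yra1 to its proteins.

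A value here is a log2 ratio from which the median of all spots on that array was subtracted. The direction of the deposited ratio, IP over total RNA or the reverse, or one channel over the other, is not given, so "above" and "below" refer to the deposited ratio relative to the array median and say nothing of enrichment in the IP. The titles of arrays 1 and 2 differ only in the slide number, their channels are exchanged, and they may hold the same extracts. Their mean is replicate 1, and arrays 3, 4 and 5 are replicates 2, 3 and 4. Whether separate cultures were used is not in the labels. The p-values therefore cover the scatter among these arrays and no more, which may be technical.

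Spots of one gene agreed on arrays 3, 4 and 5 and much less on arrays 1 and 2. On the second platform a gene has a pair of adjacent spots, and the pair shared a sign for 12 of 14, 21 of 27 and 12 of 13 members on arrays 3, 4 and 5, against 75.1%, 79.2% and 90.8% of all genes with a pair. Across all pairs on arrays 3, 4 and 5 Pearson's r was 0.79, 0.86 and 0.92, over 1542, 2365 and 1429 genes. These pairs share array, hybridisation and slide position. On array 1, where spots of a gene lie apart, 7 of 11 members with a pair had one sign, against 53.2% of 1098 genes, and r over all genes was 0.12. On array 2 it was 1 of 4 members, against 52.8% of 430 genes, with r of 0.31. The cause was not tested, nor was whether spots of the first platform report the gene they are named for. Values of single genes on arrays 1 and 2, and replicate 1, which rests on them, carry this limit throughout.

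**Figure D1:**
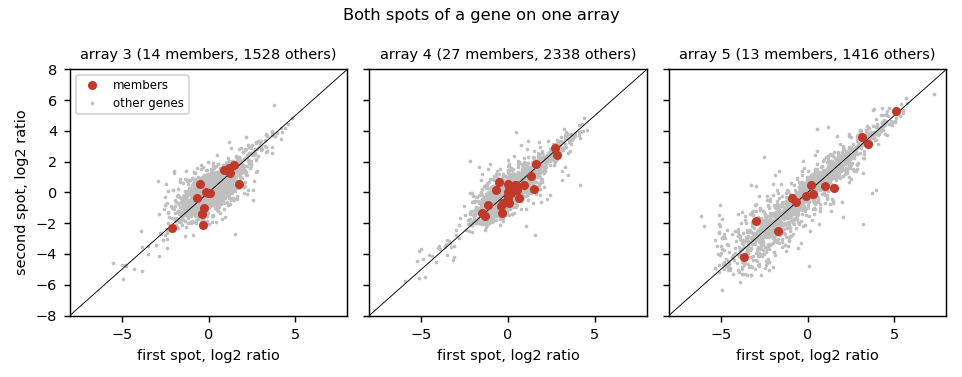
Log2 ratio of the second spot of a gene (y axis) against that of the first spot (x axis) on arrays 3, 4 and 5, each relative to the array median, with members in red, other genes in grey and the line of equality in black. The member pairs with the widest gap between spots are SRB4 on array 3 (1.81 log2 units), SPT15 on array 4 (1.30) and RPC10 on array 5 (1.27), and member values reach beyond 5 on array 5 (NUT1) and below -4 (SSN3).

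Members were measured about as often as other genes. Of the 57 members, 56, 35, 31, 33 and 14 had a value on arrays 1 to 5. The shares over all genes, in the same order, were 99.2%, 68.9%, 48.8%, 57.7% and 31.0%. Values were present in all 4 replicates for 7 members (12.7% of all genes), in at least 3 for 26 members (43.7% of all genes) and in at least 2 for 44 members (80.9% of all genes), and 13 members had a value in 1 replicate only. No member of the 7 core polymerase genes was measured on array 5.

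As a group the members stayed at the array median. On arrays 1 to 5 their median log2 ratio was 0.02, -0.12, -0.07, 0.07 and 0.07, against -0.01, 0.00, -0.04, -0.03 and -0.10 for all measured genes. Ratios above 0 were found for 29 of 56, 16 of 35, 14 of 31, 18 of 33 and 8 of 14 members on these arrays, against 49.4%, 50.2%, 47.6%, 48.7% and 48.2% of all genes. Ratios above 1 were found for 3, 2, 6, 4 and 3 members on arrays 1 to 5, against 8.92%, 8.53%, 13.0%, 14.0% and 29.8% of all genes. Ratios below -1 were found for 11, 1, 5, 3 and 3 members, against 14.4%, 6.68%, 13.6%, 12.5% and 34.8% of all genes. On array 5 the middle of the distribution was narrower for members, with an interquartile range of 1.51 over 14 members against 3.04 over 1717 genes, a difference that was not tested.

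**Figure D2:**
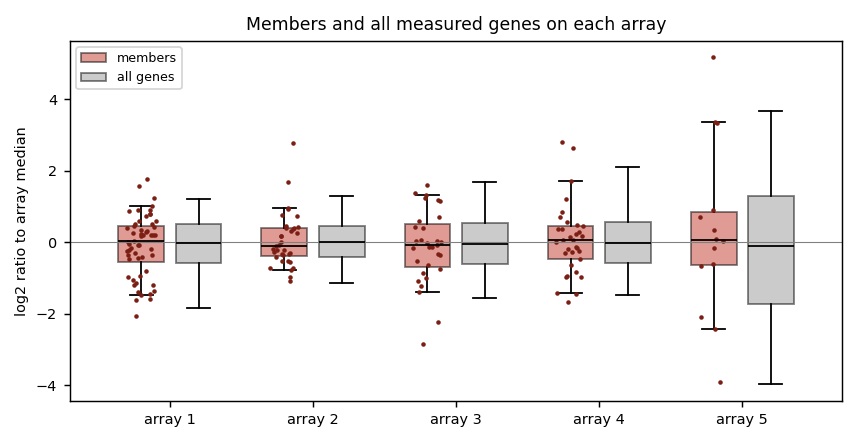
Log2 ratio to the array median (y axis) on each array for members (red boxes, left, with a point per gene) and for all measured genes (grey boxes, right). Boxes span the quartiles with the median as a line, and whiskers run from the 5th to the 95th percentile. Member medians lie between -0.12 and 0.07 on all 5 arrays.

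No member passed the test. In limma's fit over the 703 genes with a value in all 4 replicates, 0 of 7 members had an adjusted p under 0.05 (0% of all genes), and 0 of 7 had an unadjusted p under 0.05 (7.82% of all genes). The trend and robust options of eBayes left 0 genes called too, and 19 genes but no member at an unadjusted p under 0.05. The median of the 7 member means was -0.11, against 0.04 for all 703 genes. In no member did the 4 replicates share one sign, which 15.1% of all genes did. In the fit over the 2422 genes with a value in at least 3 replicates, 0 of 26 members were called (0% of all genes), and 1 had an unadjusted p under 0.05 (4.91% of all genes). There the mean lay above 0 for 12 of 26 members, against 46.8% of all genes, and the median absolute mean was 0.36 for members against 0.45 for all genes. The arrays with IP RNA in channel 2 run the same way whatever the direction. In their fit over 735 genes, 0 of 7 members were called (0% of all genes) and 0 had an unadjusted p under 0.05 (5.71% of all genes).

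**Figure D3:**
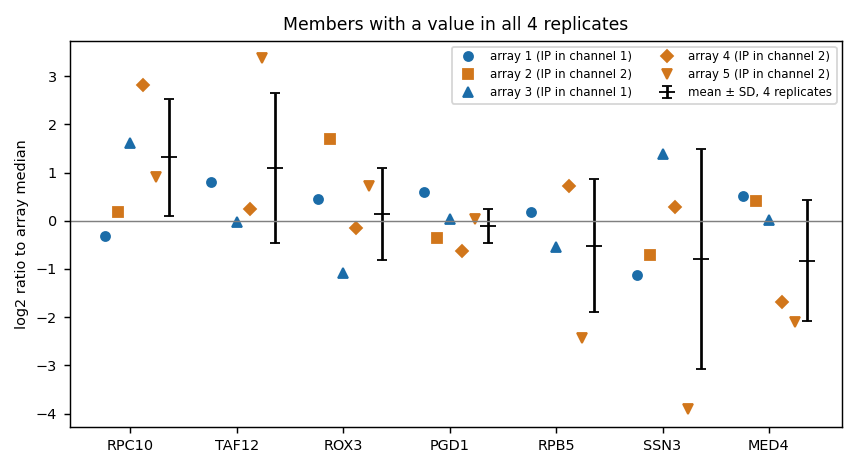
Log2 ratio to the array median (y axis) on each array for the 7 members with a value in all 4 replicates, with marker shape for the array, blue for IP RNA in channel 1 and orange for IP RNA in channel 2. Black bars give the mean and SD of the 4 replicates (arrays 1 and 2 averaged). For each of the 7 genes the array values fall on both sides of 0.

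RPC10 had the highest mean of the members in 4 replicates. It encodes a small zinc-binding subunit shared by all nuclear RNA polymerases. On arrays 1 to 5 its log2 ratios were -0.31, 0.18, 1.61, 2.81 and 0.90. It was above the median on each array of the second platform and near it on those of the first. Both spots were above the median on each of arrays 3 (1.45 and 1.78), 4 (2.70 and 2.91) and 5 (1.54 and 0.27). The mean was 1.31 ± 1.21 (SD, n = 4), with a 95% interval of -0.08 to 2.71 and an adjusted p of 0.62 in limma's fit. With the second platform alone it was 1.77, with an interval of 0.07 to 3.48 and an adjusted p of 0.51 in limma's fit over 704 genes. At an unadjusted p under 0.05 that fit held 1 of 7 members, against 9.23% of all genes. With the ratios of the arrays with IP RNA in channel 2 turned in sign, the mean was -0.59. Without replicate 3 (array 4), where RPC10 was highest, the mean was 0.82.

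Of the other shared subunits, RPB10 was, like RPC10, near the median on arrays 1 and 2 and above it on array 3. RPB10 stood at -0.07, -0.18 and 1.23 on arrays 1, 2 and 3, and both of its spots on array 3 were above 1 (1.22 and 1.24). RPB5, part of the jaw of the polymerase, had log2 ratios of 0.18, -0.54, 0.72 and -2.42 on arrays 1, 3, 4 and 5. The values lay on both sides of 0, and the mean of -0.51 ± 1.37 (SD, n = 4; limma, adjusted p = 0.76) was 0.12 without array 5, -0.92 without array 4 and -0.75 with the second platform alone. RPB8 stood at -0.46 on array 1 and 0.05 on array 3.

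The highest and lowest gene of each role are given here and below as deposited, among members with at least 3 replicates. The means with the channel 2 arrays turned in sign follow as turned means, and many of these orders do not hold there.

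The core subunits of RNA polymerase II scattered around 0. RPO21, the largest subunit, whose carboxy-terminal repeat domain receives the phosphorylation marks of the transcription cycle, had log2 ratios of 1.00, 0.37, -0.13 and 0.37 on arrays 1 to 4. Its mean was 0.31 ± 0.41 (SD, n = 3), and in limma's fit over genes in at least 3 replicates its adjusted p was 0.89. RPB2, the other large catalytic subunit, had -1.20, 0.95, 1.17 and 0.02 on the same arrays, so that arrays 1 and 2 lay on opposite sides of 0. RPB2 was the highest of the 3 core members in at least 3 replicates (0.35 ± 0.71) and RPB11, which pairs with RPB3 in the assembly platform, the lowest (-0.48 ± 0.93). Turned means were 0.03 for RPB2, 0.83 for RPB11 and -0.06 for RPO21, so that RPB11 was then the highest. For RPB11 the ratio was 0.20 and 0.42 on arrays 1 and 3, with IP RNA in channel 1, and -1.08 and -1.44 on arrays 2 and 4, with IP RNA in channel 2. The sign of RPB11 thus went with the channel of the IP RNA on its 4 arrays. The share of all genes that do so was not counted, and the pattern was not tested. RPB3 stayed near 0, at -0.20 on array 1 and -0.07 on array 3. The stalk subunits RPB4 and RPB7 were each extreme once, RPB4 at -1.42 on array 4 with spots of -1.34 and -1.50, and RPB7 at 2.76 on array 2, the highest member there. RPB9, a subunit involved in start site selection, was measured on the first platform only, at 0.19 on array 1 and -0.12 on array 2.

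**Figure D4:**
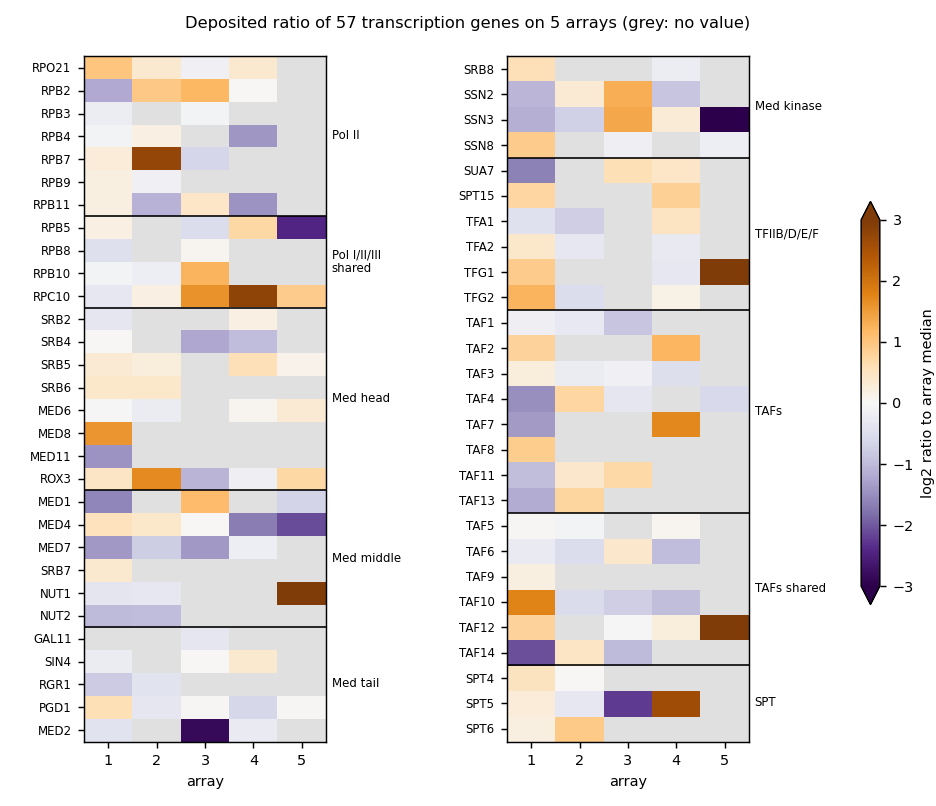
Log2 ratio to the array median (colour, orange above and purple below, saturated beyond 3 either way) for each of the 57 members (rows, grouped by role) on the 5 arrays (columns), with grey where there was no value. Array 5 holds 14 values, among them the highest (NUT1, 5.18) and the lowest (SSN3, -3.91) of all members, and few rows keep one colour.

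Mediator head genes, whose module contacts the polymerase most directly, were mostly close to 0. Among the 4 with at least 3 replicates, the mean lay above 0 for 3. ROX3, a head subunit, had log2 ratios of 0.46, 1.70, -1.07, -0.15 and 0.72 on arrays 1 to 5. They fell on both sides of 0, with a mean of 0.14 ± 0.96 (SD, n = 4; limma, adjusted p = 0.93), and the mean was -0.17 with the second platform alone. SRB5, a subunit that pairs with SRB2, was the highest by mean, with 0.30, 0.25, 0.57 and 0.10 on arrays 1, 2, 4 and 5, a mean of 0.31 ± 0.24 (SD, n = 3) and an adjusted p of 0.89 in limma's fit over genes in at least 3 replicates. These averages hide spots of both signs, at -0.07 and 0.68 on array 1, -0.33 and 0.82 on array 2 and 0.30 and -0.10 on array 5. MED6 ran from -0.23 on array 2 to 0.33 on array 5, and its spots on array 4 were -0.51 and 0.65. SRB4, a subunit that the whole head module is built on, was the lowest (-0.73 ± 0.65, SD, n = 3). It had 0.01, -1.23 and -0.97 on arrays 1, 3 and 4, but its spots on array 3 were far apart (-0.32 and -2.13), the widest member pair of that array. Turned means were -0.21 for SRB5, -0.08 for SRB4, -0.10 for MED6 and -0.57 for ROX3, so that SRB4 was then the highest. MED8 and MED11, subunits of the same module, had a value on array 1 only, at 1.58 and -1.45. SRB2 had -0.35 on array 1 and 0.17 on array 4, and SRB6 had 0.41 and 0.42 on arrays 1 and 2.

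The middle module, which links head and tail, had a median of -0.83 over its 3 members with at least 3 replicates, and 0 of these 3 had a mean above 0. Both depend on the direction, since with the channel 2 arrays turned in sign the median was 0.07 and 2 of 3 lay above 0. MED4 had log2 ratios of 0.52, 0.41, 0.01, -1.68 and -2.10 on arrays 1 to 5. Arrays 4 and 5, both with IP RNA in channel 2, were low, but array 2, with the same assignment, was above its median. The mean was -0.83 ± 1.26 (SD, n = 4), with a 95% interval of -2.24 to 0.59 and an adjusted p of 0.67 in limma's fit. It was -0.40 without array 5, -0.54 without array 4, -1.26 with the second platform alone and -0.48 with the arrays scaled to the same spread. With the ratios of the channel 2 arrays turned in sign, MED4 was the only one of the 7 members above 0 in all 4 replicates (8.96% of all genes had one sign), with a mean of 0.96. Replicates 1 and 2 were barely above 0 there, at 0.06 and 0.01, against 1.68 and 2.1 in replicates 3 and 4. Replicate 1 then averages arrays 1 and 2 on opposite sides of 0, and replicate 2 averages spots of -0.51 and 0.53. MED7 was the one member in 4 arrays or more with every value below 0, at -1.40, -0.77, -1.40 and -0.18 on arrays 1 to 4, and a mean of -0.89 ± 0.64 (SD, n = 3; adjusted p = 0.80 in limma's fit over genes in at least 3 replicates). Over replicates 1 to 3, 2 of 20 members had one sign, against 24.8% of 1737 genes. MED1 had -1.58, 1.14 and -0.66 on arrays 1, 3 and 5. Turned means were -0.51 for MED7 and 0.07 for MED1, so that MED4 was then the highest. NUT1 was grouped with the middle module here, but it is also placed in the tail. NUT1 had the highest value of any member, 5.18 on array 5, where both spots were high (5.07 and 5.28), against -0.36 on array 1 and -0.33 on array 2. NUT2 was even on arrays 1 and 2, at -0.99 and -0.97. SRB7 had a value on array 1 only (0.35).

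Tail genes as grouped here, without NUT1, were near or below 0 by mean. Their products receive most activators. PGD1 had the lowest SD of the members with 4 replicates, in which arrays 1 and 2 are averaged. Its log2 ratios were 0.59, -0.35, 0.03, -0.63 and 0.04 on arrays 1 to 5, with a mean of -0.11 ± 0.35 (SD, n = 4) and a 95% interval of -1.29 to 1.08 in limma's fit (adjusted p = 0.94). MED2 was the lowest (-1.17 ± 1.45, SD, n = 3; adjusted p = 0.80 in limma's fit over genes in at least 3 replicates). That mean rested on a single spot at -2.84 on array 3, with -0.42 on array 1 and -0.26 on array 4. SIN4 was the highest, at 0.05 ± 0.29 (SD, n = 3). Turned means were 0.27 for PGD1 and -0.18 for SIN4, so that PGD1 was then the highest. RGR1, the scaffold that joins the modules, had spots of -1.60 and 0.00 on array 1, the widest member pair there. GAL11, the main activator-binding subunit of the tail, had a value on array 3 only (-0.35), from 1 spot.

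In the kinase module, SSN3 spanned the widest range of the members with 4 replicates. It encodes the cyclin-dependent kinase of Mediator. Its log2 ratios were -1.14, -0.71, 1.38, 0.29 and -3.91 on arrays 1 to 5. Array 3 was the highest and array 5 by far the lowest, and both spots lay together on array 3 (1.15 and 1.61) and on array 5 (-3.65 and -4.17). The mean was -0.79 ± 2.28 (SD, n = 4; limma, adjusted p = 0.73), and it was 0.25 without array 5. SSN8, the cyclin that partners this kinase, was the highest by mean (0.19 ± 0.62, SD, n = 3), at 0.91, -0.16 and -0.18 on arrays 1, 3 and 5. SSN2 had -1.05, 0.31, 1.31 and -0.84 on arrays 1 to 4, and SRB8 had 0.58 on array 1 and -0.19 on array 4. Turned means were 1.20 for SSN3, 0.49 for SSN2 and 0.31 for SSN8, so that SSN3 was then the highest.

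All 6 general factor genes were measured on arrays 1 and 4, 3 of them on array 2, and 1 on each of arrays 3 and 5. SPT15, which encodes the TATA-binding protein, had 0.74 on array 1 and 0.84 on array 4, but its spots on array 4 were 1.49 and 0.19, the widest member pair of that array. TFG1, the large subunit of TFIIF, was the highest (1.31 ± 1.85, SD, n = 3; adjusted p = 0.80 in limma's fit over genes in at least 3 replicates), with 0.91, -0.31 and 3.32 on arrays 1, 4 and 5. Its spots on array 5 were both high, at 3.48 and 3.16. SUA7, which encodes TFIIB, was the lowest (-0.20 ± 1.24, SD, n = 3), at -1.62 on array 1 against 0.59 and 0.44 on arrays 3 and 4. Turned means were -0.70 for TFG1 and -0.49 for SUA7, which reverses their order. TFG2, the partner of TFG1, had 1.24, -0.52 and 0.14 on arrays 1, 2 and 4. The TFIIE genes lay within 0.73 of the median, TFA1 at -0.44, -0.73 and 0.49 and TFA2 at 0.42, -0.32 and -0.28 on arrays 1, 2 and 4.

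Of the TAF genes, TAF12 alone was measured in all 4 replicates. It encodes a histone-fold subunit of both TFIID and the coactivator SAGA. On arrays 1, 3, 4 and 5 the log2 ratios of TAF12 were 0.80, -0.03, 0.24 and 3.37. Array 5 was high in both spots (3.15 and 3.59) and the others were near the median. The mean was 1.09 ± 1.55 (SD, n = 4; limma, adjusted p = 0.62), and 0.34 without array 5. TAF10, another shared TAF, was the lowest of the 3 with at least 3 replicates (-0.36 ± 0.84, SD, n = 3), with 1.76 on array 1, the highest member there, and -0.55, -0.74 and -0.95 on arrays 2 to 4. TAF6, a histone-fold subunit, had -0.24, -0.53, 0.39 and -0.98 on arrays 1 to 4. Turned means were 0.46 for TAF10, 0.50 for TAF6 and -0.71 for TAF12, so that TAF12 was then the lowest. TAF14, which is also part of other transcription complexes, was the lowest member on array 1, at -2.08, against 0.46 on array 2. TAF5 was flat, at 0.03, -0.08 and 0.07 on arrays 1, 2 and 4, and TAF9 had a value on array 1 only (0.19).

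TAFs found in TFIID only were likewise mixed. TAF3 was the highest by mean in at least 3 replicates (-0.20 ± 0.26, SD, n = 3) and TAF4 the lowest (-0.44 ± 0.15, SD, n = 3). The SD of TAF4 is that of replicates in which arrays 1 and 2 are averaged. On arrays 1, 2, 3 and 5 it had -1.48, 0.74, -0.34 and -0.61, so arrays 1 and 2 lay on opposite sides of the others. Turned means were 0.19 for TAF3 and -0.28 for TAF4, in the same order. TAF7 differed as much, with -1.37 on array 1 and 1.72 on array 4, where its spots were 1.60 and 1.84. TAF2 was above the median on both of its arrays, at 0.77 on array 1 and 1.21 on array 4. TAF1, a scaffold subunit of TFIID, was below it on its 3 arrays, at -0.16, -0.29 and -0.87 on arrays 1 to 3. TAF11 had -0.95, 0.40 and 0.69 on arrays 1, 2 and 3, and its partner TAF13 had -1.20 and 0.77 on arrays 1 and 2. TAF8 had a value on array 1 only (0.88).

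SPT5, a conserved elongation factor that rides on the polymerase with SPT4, had the widest gap between arrays 3 and 4. Its log2 ratios were 0.26, -0.30, -2.23 and 2.62 on arrays 1 to 4. On array 3 both spots were low (-2.13 and -2.33) and on array 4 both were high (2.82 and 2.42). IP RNA was in channel 1 on array 3 and in channel 2 on array 4. The mean over 3 replicates was therefore 0.12 ± 2.43 (SD; adjusted p = 0.98 in limma's fit over genes in at least 3 replicates) as deposited, and -1.52 ± 1.58 with the channel 2 arrays turned in sign. SPT4 and the histone chaperone gene SPT6 were measured on arrays 1 and 2 only, SPT4 at 0.50 and 0.00 and SPT6 at 0.20 and 0.93.

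On the second platform, different arrays disagreed on the members more than spots of one array did. On arrays 3, 4 and 5 the median absolute difference between a member's spots was 0.40, 0.33 and 0.44 log2 units, against 0.44, 0.34 and 0.41 for all genes. Between arrays 3 and 4 the gene means differed by a median of 1.12 over 20 members (0.84 over 1739 genes), and between arrays 4 and 5 by 1.38 over 10 members (1.62 over 1070 genes). The sign was shared by 11 of 20 members on arrays 3 and 4, with opposite channel assignment (51.8% of all genes), and by 5 of 10 on arrays 4 and 5, with the same assignment (51.5% of all genes). Arrays 3 and 5, with opposite assignment, shared the sign for 5 of 10 members (58% of all genes). Gene means on arrays 3 and 5 differed by a median of 1.80 over 10 members (1.68 over 1025 genes). On the first platform, spots of a member differed by a median of 0.37 on array 1 (11 members, 0.71 over all genes) and 0.77 on array 2 (4 members, 0.61 over all genes), and arrays 1 and 2 by 0.49 over 35 members (0.69 over 3814 genes). On these arrays, the possible dye swap, the sign was shared by 18 of 35 members (50.2% of all genes).

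Other genes of the transcription apparatus gave no called member either. Signs here are as deposited, with no turned means given. Of all genes in at least 3 replicates, 46.8% had a mean above 0. Of 6 TFIIH, TFIIA and remaining polymerase and Mediator genes with at least 3 replicates, 0 had a mean above 0, with a median of -0.44. RAD3, the TFIIH helicase gene that also acts in DNA repair, had -1.45 ± 2.21 (SD, n = 4; limma, adjusted p = 0.62) and stood at -4.68 on array 5. Of 7 genes for further elongation factors, kinases of the polymerase tail and the mRNA export helicase SUB2, 5 had a mean above 0, with a median of 0.16. SPN1, a partner of SPT6, had -0.05, -0.24, -0.51 and -0.14 in replicates 1 to 4, with an adjusted p of 0.87 in limma's fit. Each replicate was below the median (15.1% of all genes had one sign in all 4). Replicate 1 averages opposite values, though, with -0.98 on array 1 and 0.87 on array 2. Of 6 SAGA genes, 2 had a mean above 0. SPT8, the SAGA subunit that contacts TBP, was above the median in all 4 replicates, at 0.70, 0.64, 2.70 and 1.33 (15.1% of all genes had one sign). Its mean was 1.34 ± 0.96 (SD, n = 4). In limma's fit the unadjusted p was 0.047 (7.82% of all genes were under 0.05) and the adjusted p 0.61. With the channel 2 arrays turned in sign, the SPT8 values on arrays 2, 4 and 5 would lie below the median. SPT20 had -0.60 ± 1.43. Of the genes specific to the other nuclear polymerases, 1 of 3 for RNA polymerase I and 3 of 5 for RNA polymerase III had a mean above 0, with RPC19, in polymerases I and III, at -0.04 ± 0.64 (SD, n = 4). BUR6, of the TBP regulators, had the only mean over at least 3 replicates there, -1.22 ± 1.82 (SD, n = 3).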

How the data were processed

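Per array, the deposited tables give a log10 ratio between the channels for each spot. Scale, direction, centring and any processing by the authors are not given in the sources used here. Base 10 was settled from the values: the simplest fraction matching a value had terms up to 65535 and a product under 100000000 for 32.9% (array 3) to 93.6% (array 4) of values, against 7.6% to 8.8% of values jittered by up to 0.01 and 2.1% to 4.4% with base 2 or e. Median deposited log10 ratios were -1.39, 1.34, -0.853, 0.302 and -0.141 on arrays 1 to 5, so the channels were not balanced. In the matching fractions of all genes, the lower term had a median of 163, 240, 272.5, 980 and 297 on arrays 1 to 5. The higher term had 3984, 5201, 2736, 2041 and 1089, so the terms were furthest apart on arrays 1 and 2. Whether these terms are the channel signals, and whether the lower ones lie near background, was not tested. The number of arrays, 5, limits the precision.

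Values were converted to log2 and centred on each array's median. Spots were named by GEO's old platform annotation, with symbols updated through RefSeq R64 (5578 of 5583 and 5534 of 5539 genes matched). Of the spots, 6695 and 11138 carried 1 gene, 0 several, and 985 and 1662 were unnamed here. Spots of a gene were averaged, then arrays 1 and 2. Where only 1 of these had a value, it stood for replicate 1. Means were tested against 0 with limma 3.58.1 (R 4.3.3, lmFit and eBayes) over all genes, with p-values adjusted by Benjamini and Hochberg's method (threshold 0.05). The script was tested on simulated data. Python 3.11.15, numpy 2.4.6, pandas 2.3.3 and matplotlib 3.10.9 were used. Alternatives changed direction, replicate unit, genes tested, array scaling, centring, spot summary, platform and variance model, and left out each replicate.

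Genes were named by rule: members in all 4 replicates, the highest and lowest mean of each role among members in at least 3 replicates, RPO21, SPT15, and the highest and lowest of each other list in 4 replicates. All other members are given too, to complete the roles, and BUR6 was chosen after its values were seen. The members and lists were chosen with earlier results of these data known.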

Additional observations from a re-analysis of the deposited data

Results flagged for a closer look

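PGD1 had 1 replicate apart from the other 3. Its value in replicate 3 (array 4) was -0.63, and the gap to the nearest other replicate was 0.88 of the whole range, above the 95% critical value in Dixon's test for 4 values. Replicate 1 averages arrays 1 and 2, where PGD1 had 0.59 and -0.35, so the single arrays are less close together than the replicates. Dixon's test was not run on single arrays. Of the 7 members in 4 replicates and their median, 8 sets of values were tested and 1 stood out, where chance gives about 1 in 20, or 0.4.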

How the results depend on the processing

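No gene was called in the fits over all arrays or over the arrays with IP RNA in channel 2, with 0 genes and 0 members under every alternative run. The smallest adjusted p was 0.06, for the channel 2 arrays scaled to the same spread. The median of member means was 0.27 with the channel 2 arrays turned in sign, against -0.11 as deposited, and ranged from -0.18 to 0.20 when each replicate was left out. Without replicates 1 to 4 the fits held 7, 10, 10 and 20 members, so the list changed as well. The median was -0.01 over the 44 members in at least 2 replicates, an alternative chosen after seeing the data. The number of members with one sign in all replicates was 0 of 7 (15.1% of all genes). It was 1 of 7 with the channel 2 arrays turned (8.96% of all genes) and 1 of 7 with the second platform only (31% of all genes). Without replicates 1 to 4 in turn it was 1 of 7, 2 of 10, 2 of 10 and 2 of 20 members, against 31%, 26.9%, 31.9% and 24.8% of all genes. The second platform alone is the same fit as leaving out replicate 1. With the channel 2 arrays turned, all 7 members in 4 replicates changed sign: MED4 to 0.96, PGD1 to 0.27, ROX3 to -0.57, RPB5 to 0.34, RPC10 to -0.59, SSN3 to 1.20 and TAF12 to -0.71. Leaving out each replicate gave -0.18 to 0.065 for PGD1 (positive without replicate 3), -0.17 to 0.55 for ROX3 (negative without replicate 1, as with the second platform only, and -0.05 without replicate 4), -0.92 to 0.12 for RPB5, -1.52 to 0.25 for SSN3 (both positive without replicate 4), -1.26 to -0.40 for MED4, 0.82 to 1.77 for RPC10 and 0.34 to 1.47 for TAF12. With the arrays scaled to the same spread, the means were -0.48 for MED4, -0.13 for RPB5, -0.25 for SSN3 and 0.59 for TAF12. The cause was not tested. Each ratio already pairs the IP RNA and total RNA of its array, so the test of the mean against 0 uses this pairing. There is 1 group of arrays, and no further pairing was available. No file gives signal over background, so dim spots could not be set aside.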
